A study of Mus musculus with 6 samples.

Results

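The choroid plexus genes Ttr, Folr1, Kl, Clic6, Kcnj13, Otx2, Aqp1, Slc4a5, Cldn2 and Prlr were followed through 6 mouse brain libraries. They were chosen by symbol, as 10 of the 24421 genes in the deposited count table, and all 10 were present. The choroid plexus is a folded epithelium inside the brain ventricles. It secretes cerebrospinal fluid by moving ions and water across its apical membrane, and it carries hormones, vitamins and plasma proteins between blood and fluid. Its cells are joined by tight junctions around leaky capillaries, and they are not of the oligodendrocyte lineage.

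The libraries came from a RiboTag experiment, in which Cre recombinase switches on a haemagglutinin (HA) tagged ribosomal protein, Rpl22HA, and an HA antibody then captures the ribosomes of recombined cells. All mice carried NG2CreERTM, a tamoxifen-inducible Cre driven by the gene of the precursor protein NG2, and 1 copy of Rpl22HA. Control mice were NG2CreERTM;Rpl22HA/+. The icKO mice, with an inducible conditional knockout of the membrane scaffold ankyrin-G, were NG2CreERTM;Ank3F/F;Rpl22HA/+. Tamoxifen was given to all of them at 8 weeks of age, at 100 mg/kg a day for 5 days, and brains were taken 1 month later. Each library pooled 3 animals. Input was RNA of the brain homogenate (10% of it) and IP was RNA of the HA pull-down. There were 1 control input, 2 control IP, 1 icKO input and 2 icKO IP libraries, and 1 icKO IP title reads cKO. NG2 is also made by pericytes, so recombined cells need not all be oligodendroglial.

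Each library held between 18968806 and 23930812 counts. Levels below are in CPM (counts relative to library size), TMM-scaled over the 6 libraries, where 3 counts equal 0.124 to 0.166 CPM. Of a pair of input values the control input stands first. Ank3 was at 382 CPM in the control input, 347 in the icKO input, 1356 and 1386 in control IPs against 1163 and 1165 in icKO IPs. These counts cover the whole gene, so they check the genotype weakly. The labelled oligodendrocytes were present in the IP: the myelin gene Mag was at 141 and 146 CPM in the inputs and 1309 to 1632 in the IPs, and the NG2 gene Cspg4 at 21.8 and 22.9 against 892 to 971.

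Together the 10 genes held 0.0532% of all counts in the control input (95% Wilson interval 0.0522 to 0.0542) and 0.0618% in the icKO input (0.0608 to 0.0629). In the IPs they held 0.0044% and 0.0049% (control) and 0.0051% and 0.0052% (icKO). Intervals here cover counting error only. In bulk RNA, fewer choroid plexus cells in a pool and less RNA per cell cannot be told apart. Each gene was lower in all 4 IP libraries than in both inputs.

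**Figure D1:**
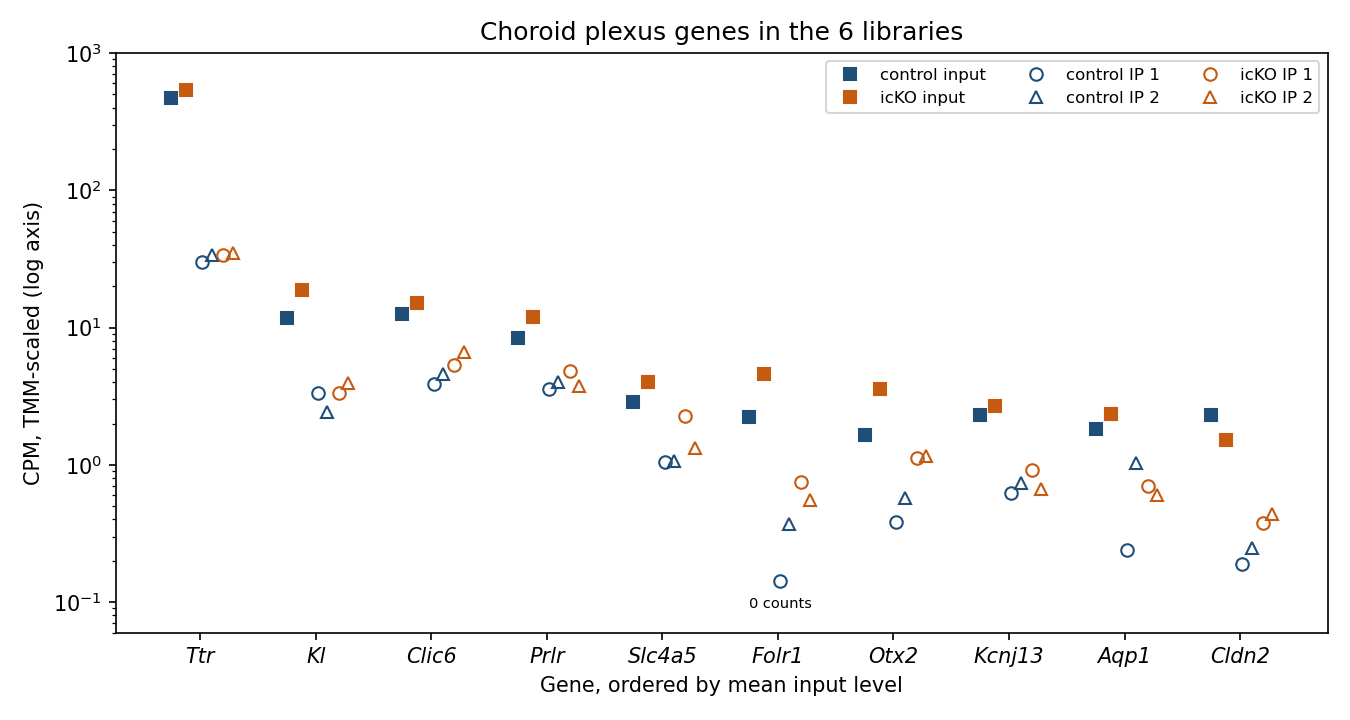
TMM-scaled CPM (log axis) of each choroid plexus gene in each of the 6 libraries, with filled squares for inputs, open symbols for IPs, blue for control and orange for icKO. Every open symbol lies below both squares of its gene; Folr1 had 0 counts in control IP 1 and is drawn at the level of 3 counts.

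Ttr encodes transthyretin, the thyroxine and retinol-binding protein carrier that the choroid plexus secretes into cerebrospinal fluid (ENSMUSG00000061808.4, mm10 chromosome 18, 20665280 to 20674321, plus strand). It was at 466 CPM in the control input and 535 in the icKO input, 30.0 and 33.5 in control IPs against 34.0 and 34.8 in icKO IPs. The inputs were thus well apart from the IPs, while the 4 IP libraries lay close to each other. Ttr fell 15.1-fold from input to IP (log2 -3.92 ± 0.07 SE, edgeR adjusted p = 1.84e-09), and mean IP level was 6.61% of mean input level. Per kilobase of exon, the mean input level of Ttr was 422 CPM.

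The other 9 genes were far less abundant. Per kilobase of exon, mean input levels were 3.53 CPM for Clic6, 1.97 for Kcnj13, 1.64 for Kl and 1.48 for Folr1. They were 0.792 for Aqp1, 0.663 for Prlr, 0.615 for Otx2, 0.595 for Slc4a5 and 0.576 for Cldn2. Ttr and Clic6 were each separate from the next gene in this order. The values of the 2 inputs overlapped among Kcnj13, Kl and Folr1, and again among the last 5 genes, so the order inside those groups is not resolved. Ttr made up 91.0% and 89.2% of the 10 genes' counts in the inputs, but 68.9% and 69.3% in control IPs against 63.5% and 64.5% in icKO IPs.

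Receptors were next in role. Folr1, the folate receptor that carries folate into cerebrospinal fluid (chromosome 7, 101858331 to 101870788, minus strand), had 49 counts in the control input, 94 in the icKO input, 0 and 9 in control IPs against 14 and 10 in icKO IPs. In CPM these were 2.23, 4.58, 0 and 0.371, and 0.750 and 0.552. Folr1 had the lowest level of the 10 in any library, and fell 8.31-fold in the IP (log2 -3.06 ± 0.48 SE, edgeR adjusted p = 2.67e-04).

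Kl encodes klotho, a co-receptor for FGF23 whose ectodomain is shed into the fluid (chromosome 5, 150952607 to 150993817, plus strand). It was at 11.7 and 18.8 CPM in the inputs, 3.33 and 2.43 in control IPs against 3.32 and 3.97 in icKO IPs. The IPs of the 2 genotypes overlapped. Kl fell 4.61-fold (log2 -2.20 ± 0.16 SE, edgeR adjusted p = 1.34e-06). Prlr, the prolactin receptor (chromosome 15, 10177238 to 10349180, plus strand), was at 8.43 and 11.9 CPM in the inputs, 3.57 and 4.04 in control IPs against 4.82 and 3.75 in icKO IPs. It kept 39.8% of its input level and fell 2.48-fold (log2 -1.31 ± 0.16 SE, edgeR adjusted p = 5.52e-05).

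Of the channels and transporters, Clic6, a chloride intracellular channel family gene (chromosome 16, 92485736 to 92541243, plus strand), had the highest level: 12.6 and 15.1 CPM in the inputs, 3.91 and 4.62 in control IPs against 5.31 and 6.68 in icKO IPs. Both icKO IPs were above both control IPs. Clic6 fell 2.72-fold from input to IP (log2 -1.44 ± 0.15 SE, edgeR adjusted p = 1.28e-05).

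Slc4a5 encodes the apical sodium bicarbonate cotransporter NBCe2 (chromosome 6, 83219828 to 83304945, plus strand). It was at 2.87 and 4.04 CPM in the inputs, 1.05 and 1.07 in control IPs against 2.25 and 1.32 in icKO IPs. It had the smallest fall of the 10, 2.45-fold (log2 -1.29 ± 0.27 SE, edgeR adjusted p = 0.0016), within its error of those of Prlr and Clic6. Aqp1, the apical water channel (chromosome 6, 55336432 to 55348555, plus strand), was at 1.82 and 2.34 CPM in the inputs, 0.238 and 1.03 in control IPs against 0.697 and 0.607 in icKO IPs. The control IPs, with 5 and 25 counts, spread wider than the genotypes differed. Aqp1 fell 3.14-fold (log2 -1.65 ± 0.45 SE, edgeR adjusted p = 0.0074).

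Kcnj13 encodes the inward rectifier potassium channel Kir7.1 (chromosome 1, 87386363 to 87394729, minus strand). It was at 2.32 and 2.68 CPM in the inputs, 0.619 and 0.743 in control IPs against 0.911 and 0.662 in icKO IPs, a fall of 3.38-fold (log2 -1.76 ± 0.30 SE, edgeR adjusted p = 4.71e-04). The gene lies wholly within Gigyf2 on the opposite strand, and 49.1% of its exonic bases are also Gigyf2 exon. Gigyf2 had 2758 to 3303 counts a library against 12 to 55 for Kcnj13, and no source used here gives the strand setting of the counts. The share of Kcnj13 counts that came from Gigyf2 was not tested.

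Cldn2, a pore-forming claudin of leaky tight junctions (chromosome X, 139800828 to 139811386, plus strand), was the 1 gene of the 10 with a lower icKO than control input. It had 51 and 31 counts in the inputs, 4 and 6 in control IPs against 7 and 8 in icKO IPs, or 2.32, 1.51, 0.190, 0.248, 0.375 and 0.441 CPM. The 2 genotypes were thus in opposite orders in input and IP. Cldn2 fell 6.16-fold from input to IP (log2 -2.62 ± 0.43 SE, edgeR adjusted p = 3.44e-04), with log2 -1.87 without the control input and -3.36 without the icKO input. Otx2, a homeobox transcription factor needed for choroid plexus development and upkeep (chromosome 14, 48657677 to 48673819, minus strand), was at 1.64 and 3.55 CPM in the inputs, 0.381 and 0.578 in control IPs against 1.13 and 1.16 in icKO IPs. Here icKO was above control in both kinds of library. Otx2 fell 3.21-fold (log2 -1.68 ± 0.30 SE, edgeR adjusted p = 5.99e-04).

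Against input, then, all 10 genes passed the filter on low counts and all 10 fell in the IP by over 2-fold, a direction that 6 of them lost when libraries were scaled to neuron markers. Among all 15451 genes tested, 35.1% were called lower, 34.8% were called higher and 14.8% were called lower by over 2-fold, and all 4 IP libraries lay below both inputs for 37.2%. The median log2 of the 10 was -1.72 against 0.01 over all genes tested. Leaving out any 1 library left all 10 called, as did DESeq2 and scaling to library totals. Within the control libraries alone the log2 of Ttr was -3.87 and within the icKO libraries -3.96 (4-group fit). For the other 9 genes these values ran from -3.45 to -1.13 and from -2.80 to -1.17.

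RNA of several other brain cells also fell in the IP. Marker lists had median log2 values of -2.11 for neurons (12 of 12 fell), -1.91 for astrocytes (8 of 8), -2.64 for microglia (8 of 8) and -1.64 for endothelium (7 of 8). The list of hypothalamic neurons had the lowest median, -4.56 (3 of 4 fell). Its peptide genes Avp (-4.84 ± 0.32 SE) and Oxt (-4.78 ± 0.28) fell more than Ttr, on 1 to 8 and 3 to 7 counts in the IPs. Pmch (-4.35 ± 0.77), with 0 to 4 counts in the IPs, was within its error of Ttr. Lists from cells beside the choroid plexus moved both ways. For ependyma 4 of 8 fell and 3 rose (median -0.64, with Foxj1 at 1.21), and for leptomeningeal fibroblasts 6 of 10 fell and 2 rose (median -0.48). Lists of NG2-lineage cells and pericytes rose, with medians of 2.52 for mature oligodendrocytes (10 of 10), 4.85 for precursors (6 of 6) and 3.62 for pericytes (6 of 6). When libraries were scaled to the summed neuron markers, which adds 2.08 to the median log2 of all genes, only Ttr of the 10 was still called lower in the IP (log2 -1.83, edgeR adjusted p = 3.50e-09). Under this scaling Prlr (0.77, edgeR adjusted p = 0.0019), Clic6 (0.64, 0.0027) and Slc4a5 (0.78, 0.0196) were called higher. Folr1 (-0.9998), Cldn2 (-0.55), Kl (-0.12), Kcnj13 (0.32), Otx2 (0.39) and Aqp1 (0.42) passed in neither direction, with edgeR adjusted p from 0.0804 to 0.540. Relative to the summed neuron markers, then, Ttr was depleted further, and 3 genes less. Single neuron markers ran from log2 -2.97 (Nrgn) to -1.54 (Rbfox3) in the main fit. There Clic6 (-1.44 ± 0.15 SE) and Slc4a5 (-1.29 ± 0.27) were within their errors of Rbfox3, so their place depends on the neuron genes used. Ttr lay below every single neuron marker and Prlr (-1.31 ± 0.16 SE) above every one.

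**Figure D2:**
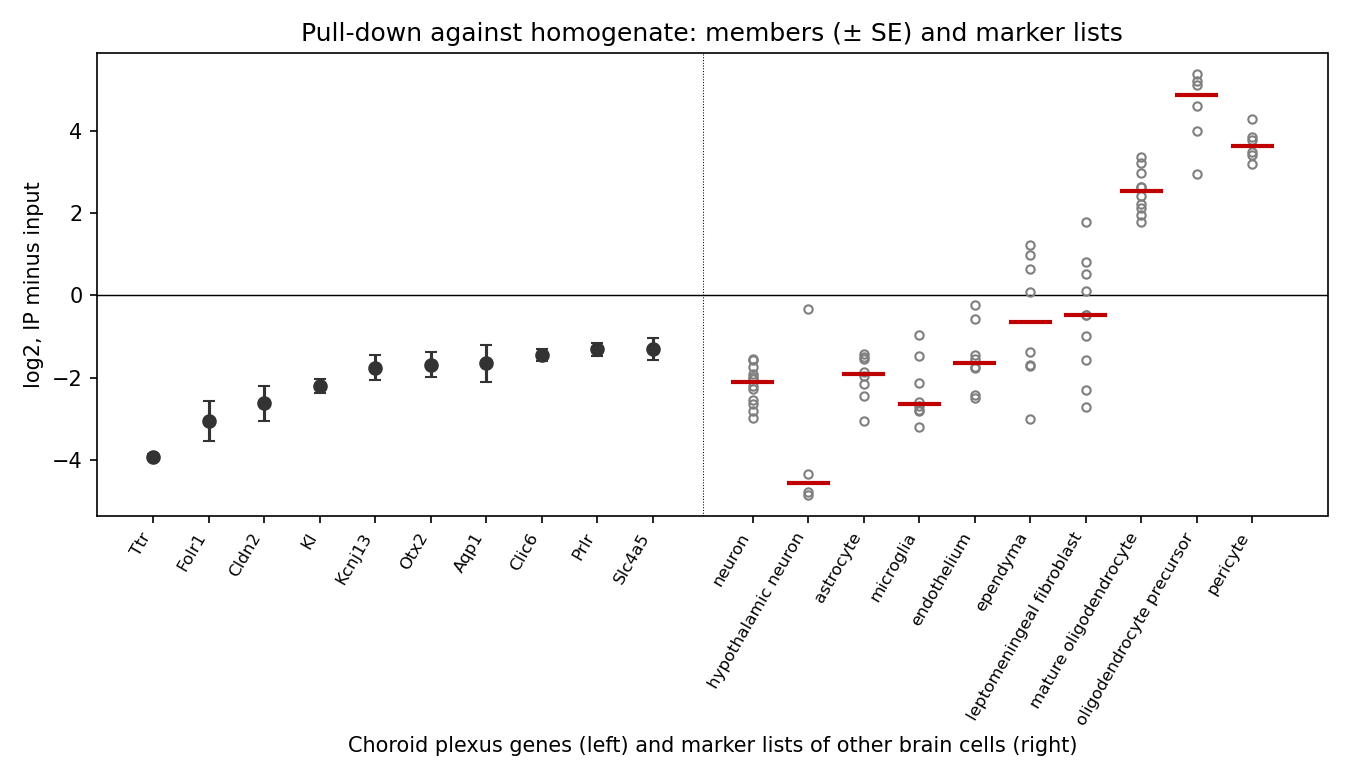
Log2 of IP minus input. Black points are the choroid plexus genes with their SE from the fit over 6 libraries; grey circles are single marker genes of the lists named on the axis and red lines their medians. Ttr, at -3.92, lies below the circles of every list drawn except hypothalamic neurons. There Avp, Oxt and Pmch lie lower, Pmch within its SE (not drawn) of Ttr. Prlr and Slc4a5, at -1.31 and -1.29, lie above the neuron median of -2.11.

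Genes whose level followed Ttr most closely over the 6 libraries were sought among 11640 others with a mean of at least 5 CPM. The measure was the root mean square difference in centred log2 CPM. Closest were Gm20594 (0.283), the interneuron gene Pvalb (0.319) and the neuropeptide genes Penk (0.355), Npy (0.382) and Vip (0.388). Penk, for example, was at 451 and 467 CPM in the inputs and 47.8 to 51.6 in the IPs. The minimum level left out low choroid plexus genes such as Kcne2. With 6 libraries the likeness is mainly that of input against IP.

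Wider lists of genes known from choroid plexus epithelium, many of which other brain cells also express, moved less uniformly. Of 53 in the table, 46 passed the filter, of which 27 fell and 12 rose in the IP (median log2 -0.73), or 4 and 30 when scaled to neuron markers. Over all genes tested the shares were 35.1% called lower and 34.8% called higher, which is the background for the counts that follow. Ion transport genes split (7 fell and 5 rose of 13). Kcne2, a potassium channel subunit, was at 1.64 and 1.95 CPM in the inputs and 0.0476 to 0.331 in the IPs (log2 -3.25), and Atp1b1, a sodium pump subunit also high in neurons, fell (-2.62). Slc12a2, the chloride cotransporter NKCC1, rose (2.53), as did Slc12a4 (1.998).

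Secreted products mostly fell (7 fell and 2 rose of 9). The secreted peptide gene 1500015O10Rik, at 2.64 and 3.60 CPM in the inputs and 0.0953 to 0.330 in the IPs, was at log2 -3.63, near Ttr, and Igfbp2 was at -2.48. Enpp2, which encodes autotaxin and is also made by oligodendrocytes, rose (1.21), as did Cp, the ceruloplasmin gene (2.32). Of structure and junction genes 9 of 11 fell and 0 rose, with the collagen gene Col8a2 at -2.72 and Calml4 at -2.43, while Steap1 (0.31) and Col8a1 (-0.12) did not pass. Solute transporters were mixed (4 rose and 2 fell of 9): Slc22a8 (1.25) and Abcc1 (1.10) rose, and Slc13a4 (-1.93) and Slc23a2 (-0.38) fell. Among regulators and receptors the serotonin receptor Htr2c (-2.17) and the homeobox gene Msx1 (-1.91) fell, the leptin receptor Lepr rose (0.91), and Gmnc (0.61) did not pass. All these calls are edgeR adjusted p under 0.05.

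Partners of the 10 genes in hormone, vitamin and cytokine handling were also counted: of 13, 5 fell and 3 rose in the IP, against 35.1% and 34.8% of all genes, so neither count stands out from the background. These genes are named after their values were seen. Those that fell were Rbp4 (-1.93), whose product binds transthyretin, its receptor Stra6 (-2.17), the deiodinase Dio2 (-1.20) and the cytokine-induced inhibitors Cish (-1.62) and Socs2 (-0.69). Those that rose were the reduced folate carrier Slc19a1 (1.16), Jak2 (1.08) and Stat5a (0.62), the last pair acting downstream of the prolactin receptor.

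Between the inputs, 9 of the 10 choroid plexus genes were higher in icKO, as were 52.4% of all genes tested. This comparison has 1 library a group and no test. The icKO to control ratio was 1.15 for Ttr (95% counting interval 1.12 to 1.18) and was highest for Otx2, at 2.17 (1.43 to 3.32), Folr1, at 2.05 (1.44 to 2.96), and Kl, at 1.61 (1.37 to 1.89). It was 1.42 for Prlr (1.16 to 1.72), 1.41 for Slc4a5 (1.002 to 1.99) and 1.20 for Clic6 (1.02 to 1.42). These 7 intervals lay above 1, which held for 16.3% of all genes, and 3 ratios were over 1.5 against 5% of all genes. The intervals of Aqp1 (1.28, 0.825 to 2.001), Kcnj13 (1.15, 0.773 to 1.72) and Cldn2 (0.649, 0.402 to 1.03) spanned 1. The intervals of Folr1, Otx2 and Kl lay above that of Ttr, but they hold counting error only, and the spread between pools of 1 genotype was not measured for input.

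Other lists also differed between the inputs. Of the 46 wider choroid plexus genes 40 were higher in icKO and 6 lower, with a median ratio of 1.11, and all 11 structure and junction genes were higher (median 1.15). All 8 endothelial markers were lower in icKO (median 0.738, with Cldn5 at 0.621 and Pecam1 at 0.575), and the fibroblast gene Col1a1 was higher (2.36, 95% counting interval 2.04 to 2.73), although Dcn was at 1.08 and Ogn at 0.708. Plvap, a gene of fenestrated capillaries such as those of the choroid plexus, was at 1.27 (0.985 to 1.64). Neuron markers had a median ratio of 1.03 and ependymal markers 1.06. Of the ependymal markers 6 of 8 were higher in icKO, with Cfap126 at 2.33 (1.28 to 4.40) and Rsph1 at 1.34 (1.02 to 1.78), while Foxj1 and Ccdc153 were at 0.901 and 0.984. Summed over their lists, endothelial markers were at 137 and 100.4 CPM in the inputs, fibroblast markers at 65.3 and 93.2, and ependymal markers at 24.6 and 27.0. Their part in the ratios of the 10 genes was not tested.

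Markers of other tissues were also read, since some of them use these genes. The pituitary Gh and Prl had at most 0.182 and 0.228 CPM in any library, and both were at 0 in the icKO input and all IPs. The pineal Asmt had at most 0.195 CPM in any library, Crx at most 0.243, Aanat at most 0.441 and Tph1 at most 1.05. Only Rorb of the pineal list was higher, at 89.0 and 101 CPM in the inputs. The retinal pigment epithelium also uses Otx2 and Kcnj13. Of its list, Rpe65 was at 2.32 and 1.56 CPM in the inputs, near the input levels of Kcnj13 and Otx2 themselves. Best1 of the same list had at most 0.957 CPM in any library, Rgr at most 0.165 and Lrat at most 0.146. Rlbp1 was at 7.43 and 9.30 CPM in the inputs and 92.5 to 117 in the IPs (log2 3.66). It was the only gene called of the 3 tested from this list, as Rpe65 (-0.67) and Best1 (-0.94) did not pass. All 4 globin genes of the erythrocyte list were listed at 0 in every library. How reads were assigned to genes is not given, and whether globin RNA was absent was not tested. The remaining gene of that list, Alas2, was at 19.8 and 7.59 CPM in the inputs, an icKO to control ratio of 0.384 (0.318 to 0.462). Of the list of cerebellar granule and Purkinje cells, Gabra6 had 0 and 1 counts in the inputs, Pcp2 0 and 0, Cbln3 2 and 6, and Fat2 7 and 20. Cbln1 (134 and 163) and Calb1 (2707 and 2626) had more. How much cerebellum the homogenates held was not tested. The part of these tissues was not tested beyond these values.

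Between genotypes in the IP, 9 of the 10 genes passed the filter, as Cldn2 did not, and 2 were called higher in icKO: Otx2 and Clic6. Among 15069 genes 22.1% were called higher and 25.2% lower, so 2 of 9 is near the background. Otx2 was at log2 1.23 ± 0.50 SE (edgeR adjusted p = 0.04) and Clic6 at 0.49 ± 0.19 (edgeR adjusted p = 0.037). Both calls were lost with DESeq2 (adjusted p = 0.127 and 0.126), with library totals (edgeR adjusted p = 0.0551 and 0.0859) and with neuron scaling (0.0643 and 0.129). The Otx2 call was also lost without any 1 of the 4 libraries (edgeR adjusted p from 0.0827 to 0.237). The Clic6 call was lost without control IP 1 (log2 0.37, edgeR adjusted p = 0.181) or icKO IP 2 (0.31, 0.324).

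Folr1 was at log2 1.70 ± 0.77 SE (edgeR adjusted p = 0.0661). It was at 0.80 without control IP 1, the library where it had 0 counts (edgeR adjusted p = 0.494). Without control IP 2 it was called higher (edgeR adjusted p = 0.0082), with a fitted log2 of 6.66 that has no meaning as a size, since the control IP left had 0 counts. Slc4a5 was at 0.75 ± 0.39 (0.107), Kl at 0.35 ± 0.24 (0.251), Kcnj13 at 0.20 ± 0.50 (0.764), Prlr at 0.17 ± 0.21 (0.537) and Aqp1 at -0.0029 ± 0.58 (0.998), each with the edgeR adjusted p in brackets. Ttr, by far the best measured, was at 0.12 ± 0.08 (edgeR adjusted p = 0.229), and at -0.02 when scaled to neuron markers, which moves the median of all genes by -0.13. Both icKO IPs lay above both control IPs for 6 of the 10 genes (Ttr, Folr1, Clic6, Otx2, Slc4a5 and Cldn2), against 35.5% of genes tested. They lay below them for 0 of the 10, against 36.5% of genes tested. Cldn2, with 4 to 8 counts in the IPs, did not pass the filter and is not among the genes tested. The median log2 of the 9 was 0.35 against 0.0033 over all genes. Of 41 wider choroid plexus genes 8 were called higher and 12 lower (median -0.002). Here too other lists moved: all 6 pericyte markers fell (median -0.96) and all 10 mature oligodendrocyte markers fell (-0.77). Fibroblast markers moved both ways (2 rose and 1 fell of 9, median -0.12), with Col1a1 at 1.41 and Bgn at -0.88. Their part in the values of the 10 genes was not tested.

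**Figure D3:**
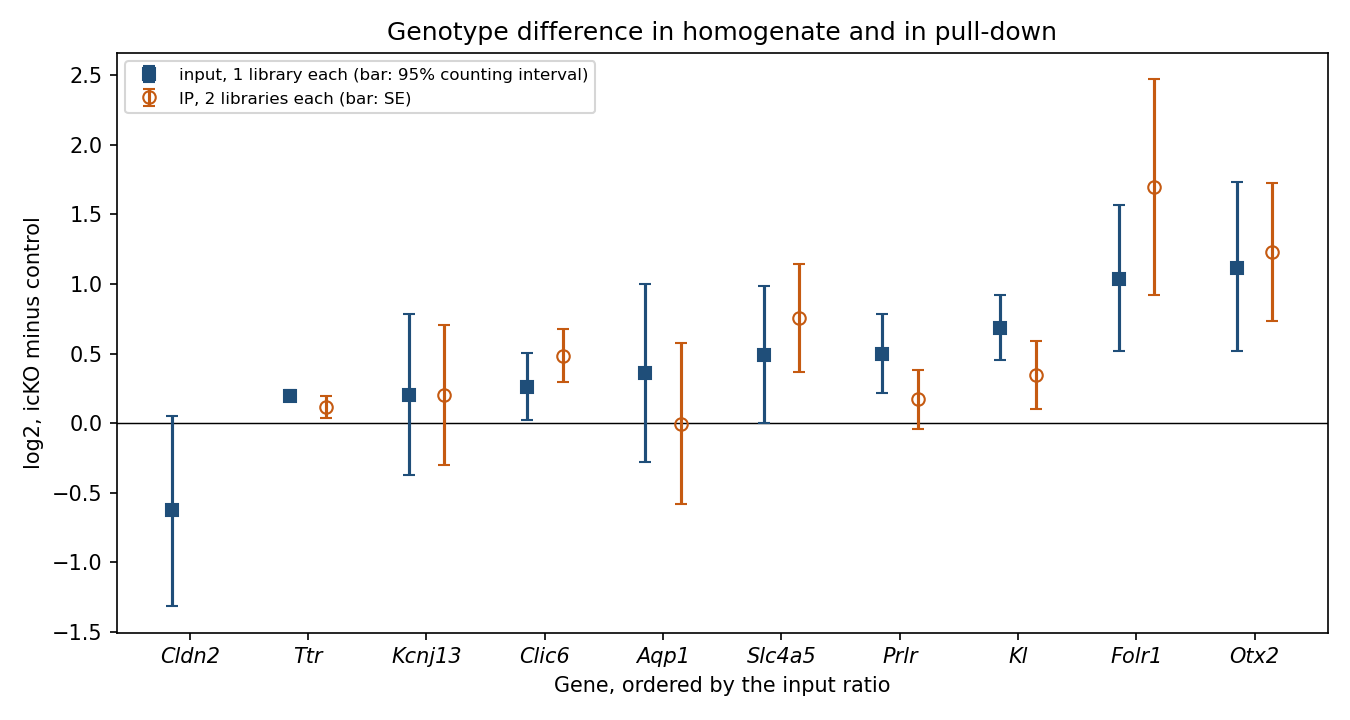
Log2 of icKO minus control for each choroid plexus gene. Blue squares compare the 2 inputs, with 95% counting intervals; orange circles compare the IPs (2 libraries each), with SE, and Cldn2 has none because it did not pass the filter. Otx2 and Folr1 are highest in both, from 1.04 to 1.70. Ttr, at 0.198 for the inputs and 0.12 for the IPs, has the shortest bars.

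Whether genotype acted differently on IP and input levels was tested as an interaction over the 4 groups, where each single input is taken to vary as the IP pairs do. It was called for 0 of the 10 genes (edgeR), with 0 at an unadjusted p under 0.05 and 0 with DESeq2, which gave an adjusted p to 1 of them. Among 15936 genes 9.67% were called higher and 13.9% lower. The log2 differences were positive for 5 genes and negative for 5, from -0.37 ± 0.79 SE for Aqp1 to 1.49 ± 0.93 for Cldn2 (edgeR adjusted p = 0.795 and 0.263). For Ttr the value was -0.09 ± 0.08 (edgeR adjusted p = 0.446). Apart from Ttr the SE ran from 0.26 (Clic6) to 0.93 (Cldn2). Changes of that size, and somewhat larger ones, would be missed at this depth and with a single input per genotype.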

How the data were processed

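RNA of mouse brain homogenate (input) and of HA pull-downs (IP) was sequenced. The authors deposited raw counts per gene symbol, without normalization. Trimmomatic 0.39, STAR 2.7.10b and the build mm10 are named in the submitters' processing notes. How reads were assigned to genes, with which strand setting, and how duplicates were treated is not given in the sources used here. Of 24421 genes, 10 had no value in the inputs and were left out. Groups and IP replicate numbers came from the titles. The labels call the IPs biological replicates without saying that each pool held other animals. The p-values therefore rest on a spread between samples that may be purely technical.

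Counts were tested over all genes with edgeR 4.0.16 (R 4.3.3; TMM, filterByExpr, quasi-likelihood F test, two-sided, Benjamini-Hochberg adjusted p under 0.05). IP was compared with input over 6 libraries with genotype as a term (3 residual degrees of freedom), icKO IP with control IP over 4 libraries (2 residual degrees of freedom), and the interaction over 4 groups. Input ratios have exact conditional 95% intervals. Positions and exon lengths came from GENCODE vM21 (mm10). The fits were tested on simulated data, but the outcome is not reported here and no result above rests on it. Alternatives were library totals, DESeq2 1.42.0, no filter, scaling to neuron markers, leaving out each library, each genotype alone and a replicate block.

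The members and lists were chosen with earlier results of these data known. The members were always named; of the wider lists, the 2 genes highest and the 2 lowest in IP against input, of other cell types 2 defining markers, and the 5 genes nearest to Ttr. Avp, Oxt, Pmch, Nrgn, Rbfox3, Cfap126, Rsph1, Ogn, Bgn, Rorb, Aanat, Crx, Best1, Rgr, Lrat and Alas2 were named after their values were seen. The same holds for Pomc, Pcp2, Cbln3, Fat2 and Calb1.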

Additional observations from a re-analysis of the deposited data

Results flagged for a closer look

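None of the 10 choroid plexus genes was singled out. In the wider lists, 3 of the genes named had a difference between IP and input that itself differed between genotypes (interaction test of edgeR). The log2 interaction, icKO minus control, was -0.57 for Slc12a2 (adjusted p = 1.15e-08), -0.39 for Enpp2 (adjusted p = 7.46e-08) and -0.18 for Atp1b1 (adjusted p = 0.0069), each in edgeR's quasi-likelihood test. Slc12a2 was at 97.0 and 107.6 CPM in the inputs, 683 and 691 in control IPs against 525 and 504 in icKO IPs. Enpp2 was at 312 and 351 CPM in the inputs, 825 in both control IPs and 712 in both icKO IPs.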

How the results depend on the processing

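The falls of all 10 choroid plexus genes in the IP held under 11 of 12 alternatives, and scaling to neuron markers was the exception. It gave 1 lower and 3 higher calls among the 10, 4 lower and 30 higher among the 46 wider genes, and 142 lower and 14492 higher among all genes. It turned the sign of Clic6 (0.64), Kcnj13 (0.32), Otx2 (0.39), Aqp1 (0.42), Slc4a5 (0.78) and Prlr (0.77). By construction this setting sets the sum of the neuron markers to no change, while single neuron markers can still differ. Between genotypes in the IP, the 2 higher calls became 0 with library totals, 0 with DESeq2, 0 with neuron scaling and 1 without a filter, and 0 to 2 on leaving out a library. Among all genes 3326 were called higher, and 1916 with neuron scaling. In the interaction test, DESeq2 called 633 genes higher and 1076 lower against 1541 and 2221 with edgeR, and neuron scaling 967 higher. Of the wider genes 1 was called higher, 0 with neuron scaling and 1 to 3 on leaving out a library. Of the 10 genes 0 to 1 was called on leaving out a library. That 1 was Folr1 without control IP 2, where the remaining control IP had 0 counts, so its fitted change has no meaning as a size. Some uncalled values turned sign. Between genotypes in the IP these were Ttr with neuron scaling (-0.0167) and Aqp1 with DESeq2 (0.0202) and with the replicate block (0.1117). On leaving out a library, Aqp1 ran from -0.657 to 1.427, Kcnj13 from -0.0456 to 0.412 and Prlr from -0.0246 to 0.338. In the interaction, Folr1 then ran from -0.238 to 5.687, Kcnj13 from -0.255 to 0.203, Otx2 from -0.144 to 0.450, Aqp1 from -1.021 to 1.067 and Slc4a5 from -0.179 to 0.585. The causes of these other changes were not tested. Replicate numbers carry no stated pairing, and same-numbered IPs did not deviate together (r = -0.0055 over 15069 genes). With the replicate block 3 of the 10 genes were called higher, Folr1 being added (edgeR adjusted p = 0.0282). A prior count of 2 in the input ratios was chosen after seeing the data, and like the other settings it kept the direction of all 10. Counts of 0 to 25 in the IPs limit Folr1, Otx2, Aqp1, Kcnj13 and Cldn2.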
